A study of Mus musculus with 6 samples.

Results

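The genes described here make, break down and read the second messenger cyclic AMP (cAMP): 9 adenylyl cyclases, 17 phosphodiesterases, 7 genes of protein kinase A, 2 Epac exchange factors, 3 kinase anchors and 7 genes of the Creb factors. These 45 genes were taken by symbol, each matched to 1 Ensembl identifier among the 49671 genes counted. They were measured by RNA sequencing of total RNA from 6 confluent cultures of induced renal epithelial cells (iRECs), mouse fibroblasts converted to tubule-like cells with kidney transcription factors. All cells carried floxed Pkd1 (strain B6.129S4-Pkd1tm2Ggg/J). Clones 4, 7 and 21 each gave a pair of cultures, one that had received Cre recombinase (Pkd1 -/-) and one that had received Flp recombinase, which does not act on loxP sites (Pkd1 fl/fl, labelled wild type). The Cre and Flp groups therefore had 3 libraries each, every library being from 1 clone. Whether the clones derive from different animals is not stated in the labels, and the p-values speak only of the spread over these pairs, which may be technical. Both groups shared the reprogramming, the floxed allele, a transduced recombinase and culture in medium with serum.

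In tubule cells, hormones bound to receptors coupled to the stimulatory G protein switch on adenylyl cyclases at the membrane and in the primary cilium. The cAMP made there releases the catalytic subunits of protein kinase A from their regulatory subunits, opens Epac, and ends when phosphodiesterases hydrolyse it, while anchoring proteins hold kinase and phosphodiesterase in the same place. The kinase phosphorylates Creb1 and its relatives, which switch on genes with a cAMP response element in their promoter. In polycystic kidneys cAMP is raised and drives fluid secretion and growth of cysts, which is why a blocker of the vasopressin receptor is used as treatment.

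Total gene counts ran from 25196120 to 46918341 per library, with more counts in Cre than in Flp for clones 4 and 21 and fewer for clone 7. Levels are given as CPM, read counts relative to the TMM-scaled library total, and levels of different genes are compared only as CPM per kilobase of exon. That length covers all annotated exons of a gene, whether or not these cells use them, so such comparisons and family shares depend on the annotation. A count of 0 allows up to 3 counts, which is 0.0639 to 0.119 CPM depending on the library, for counting error only. Pkd1 itself, counted over the whole gene and so checking the deletion only in part, was at 145, 105 and 117 CPM in Cre clones 4, 7 and 21 and at 198, 229 and 166 CPM in the matching Flp cultures. It was lower in Cre in each clone (log2 ratios -0.45, -1.12 and -0.50 in clones 4, 7 and 21). The tubule markers Cdh16, Lrp2 and Cubn were at 710.1 CPM or more in every library. Umod reached at most 5.13 CPM and Cldn3 at most 6.90 CPM, and the collecting duct channel Aqp2 had no read in any library. The 10 tubule markers summed to 6200.4 to 7649.9 CPM in Cre and 6861 to 7915 CPM in Flp. Lrp2 was the largest part of this sum in every library, at 2313.6 to 3933.3 CPM. Of 8 fibroblast markers, 6 stayed below 1 CPM in every library, among them Thy1 at 0 throughout. Col1a1 was at 2.40 to 18.1 CPM, highest in Flp clone 4. Vim made up most of the list's sum, which was 133 to 276 CPM in Cre and 221 to 301 CPM in Flp. Of 4 endothelial markers Cdh5 and Emcn were at 0 and Tek reached 1.76 CPM, and the list summed to 0.240 to 0.875 CPM in Cre and 0.242 to 1.80 CPM in Flp. Of 4 blood markers Ptprc, Itgam and Cd3e stayed below 1 CPM while the macrophage gene Cd68 was at 4.42 to 6.62 CPM, and the list summed to 4.42 to 6.67 CPM in Cre and 6.21 to 6.70 CPM in Flp. Of 4 muscle markers Myod1 and Myog were at 0, and the list summed to 2.30 to 2.44 CPM in Cre and 0.919 to 2.66 CPM in Flp, mostly from Acta1, which was higher in every Cre library (1.96 to 2.09 CPM) than in every Flp library (0.745 to 1.82 CPM). The part of these genes in the results was not tested.

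Of the 45 genes, 32 (71.1%) were at 1 CPM or more in every library, against 24.2% of all genes counted. A further 4 reached 1 CPM in some libraries only (Adcy1, Adcy4, Pde1b and Pde7b), and 9 stayed below it throughout (Adcy2, Adcy5, Adcy8, Pde1a, Pde1c, Pde2a, Pde3a, Pde3b and Prkar1b). Pde1a and Adcy8 had no read in any library. With a filter on low counts, 36 of the 45 were tested, and none of these passed the filter through the Cre or the Flp group alone. Exon bases of 13 of the 45 are shared with another annotated gene, most in Pde2a and Adcy3. Per kilobase each family was led by 1 or 2 genes: Adcy6 among the cyclases, Pde4c among the phosphodiesterases, Prkar1a and Prkaca in the kinase, Rapgef3 over Rapgef4, and Akap12 among the anchors.

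**Figure D1:**
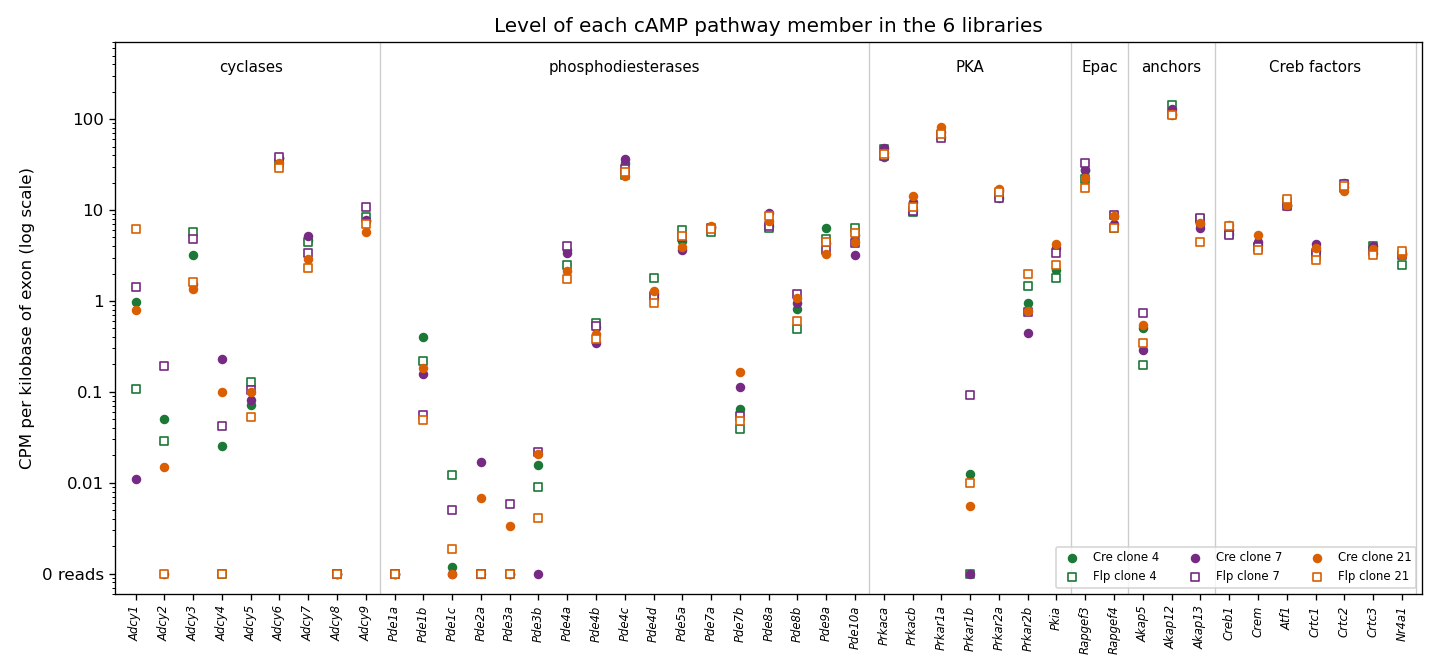
Level of each of the 45 genes in the 6 libraries, as CPM per kilobase of exon on a log scale, with filled circles for Cre, open squares for Flp and a colour for each clone; points on the lowest line had 0 reads. Most expressed genes sit within a narrow band over the libraries, while Adcy1 spreads from 0.0109 to 6.13 CPM per kilobase.

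Among the genes tested with edgeR and the clone as a block, 0 of the 36 passed an adjusted p of 0.05, where 0% of all genes did. In such bulk samples fewer cells of a type and less RNA per cell cannot be told apart. DESeq2 and limma-voom with the same block, and edgeR without the filter, also called 0 of the genes described here, where DESeq2 called 1.44% and edgeR without the filter 0.792% of all genes. At an unadjusted p under 0.05 edgeR counted 7 of the 36 (19.4%), against 6.82% of all genes tested. The genes were chosen with earlier results of these data known, so this is not the share of an independently chosen set. The 7 were Pde1b, Pde7b and Crtc1, with higher values in Cre (3.54% of all genes), and Adcy3, Pde5a, Pde10a and Prkar2b, with lower values (3.28%). Without the clone block the count was 3 of 36 (8.33%, against 4.66% of all genes), namely Pde5a, Pde7b and Crtc1. It was 11 of 37 (29.7%, against 11.0% of all genes) without clone 4. It was 4 of 36 (11.1%, against 6.02% of all genes) without clone 7 and 2 of 36 (5.56%, against 3.32% of all genes) without clone 21. Clones 4, 7 and 21 shared the sign of the difference for 13 of the 36 (36.1%), 8 higher (14.6% of all genes) and 5 lower in Cre (13.1%), against 27.7% of all genes in either direction. The Cre and Flp libraries did not overlap for 4 genes, Pde7b, Crem and Crtc1 on the higher side (4.19% of all genes) and Pde5a on the lower (3.95%). The median log2 fold change over the 36 was 0.090, beside 0.0033 over all genes tested.

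Most of the differences were also bounded. For 28 of the 36 (77.8%) the 95% interval of the fitted log2 fold change lay between -1 and 1, against 65.9% of all genes tested, so that a change of 1 log2 unit in either direction lay outside it. The 8 with wider intervals were Adcy1, Adcy3, Adcy5, Pde1b, Pde7b, Pde8b, Prkar2b and Akap5, which include the least abundant of the tested genes.

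**Figure D2:**
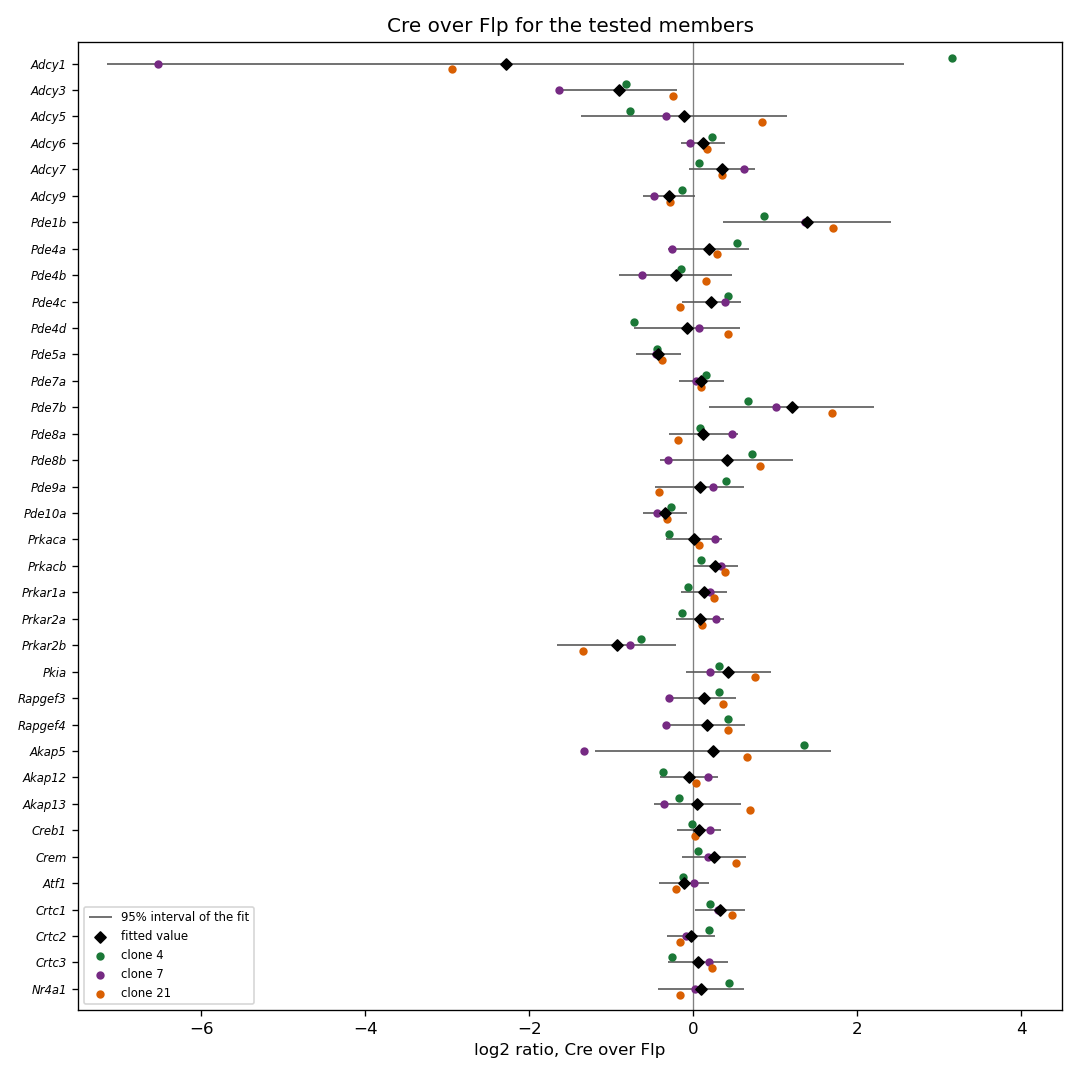
Fitted log2 ratio of Cre over Flp (black diamond) with its 95% interval (line) for each of the 36 tested genes, and the ratio in each clone (coloured dots). The interval of Adcy1 runs from -7.14 to 2.57 and its clones lie on both sides of 0, while the clones of Pde5a lie together below 0.

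The cyclases make cAMP. Adcy6, a calcium-inhibited cyclase of tubule cells that answers vasopressin and sits in the cilium (ENSMUSG00000022994, chromosome 15, 98589973 to 98610076, GRCm38, as for all positions here), held 63.1% to 75.1% of the summed cyclase level per kilobase in the 6 libraries. It stood at 255, 253 and 225 CPM in Cre clones 4, 7 and 21 and at 217, 260.3 and 199 CPM in the matching Flp cultures. The groups overlapped, and the highest library was Flp clone 7. Its fitted log2 fold change was 0.12, with a 95% interval of -0.14 to 0.39. Exons of Adcy6 share 8.92% of their bases with another annotated gene, and without strand such reads cannot be told apart.

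Adcy9, the cyclase least sensitive to forskolin, was second with 13.0% to 18.3% of the cyclase level. It was at 39.4, 40.5 and 29.7 CPM in Cre clones 4, 7 and 21 and at 43.1, 56.2 and 36.3 CPM in the matching Flp cultures. Cre was the lower in every clone, although the groups overlapped, and the log2 fold change was -0.30 (95% interval -0.61 to 0.018). Adcy7, a cyclase stimulated by G protein beta-gamma subunits, was at 31.3, 34.6 and 19.7 CPM in Cre clones 4, 7 and 21 and at 29.7, 22.5 and 15.4 CPM in the matching Flp cultures. Cre was the higher in every clone here, again with overlap between the groups, and the fitted value was 0.35 (95% interval -0.048 to 0.75). Both genes were lowest in clone 21. Adcy9 averaged 41.3, 48.3 and 33.0 CPM and Adcy7 30.5, 28.6 and 17.5 CPM in clones 4, 7 and 21.

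Adcy3, a cyclase best known from olfactory and neuronal cilia (ENSMUSG00000020654, chromosome 12, 4133103 to 4213525), was at 20.1, 9.49 and 8.48 CPM in Cre clones 4, 7 and 21 and at 35.5, 29.7 and 10.1 CPM in the matching Flp cultures. Cre was below Flp in each clone, widely in clone 7 and little in clone 21, where both libraries were low, so that the groups overlapped. The means were 12.7 ± 6.45 CPM for the Cre group against 25.1 ± 13.3 CPM for the Flp group (SD, n = 3). Clone log2 ratios were -0.82, -1.64 and -0.24 in clones 4, 7 and 21, and the fitted log2 fold change was -0.90 (SE 0.29; edgeR unadjusted p = 0.0212, adjusted p = 0.646). In the authors' deposited table Adcy3 had a log2 fold change of -0.67 and a DESeq2 adjusted p of 0.0507, the lowest of the 36 members given one there. None of these 36 passed 0.05 in the authors' deposited table, where 1.37% of all genes did. They are not the 36 tested here, since they include Pde2a and leave out Adcy5. Some deposited log2 fold changes were much smaller in size than the fitted ones, as for Pde1b (0.34 against 1.39) and Pde7b (0.31 against 1.20). The 2 values for Adcy3 may therefore not be on 1 scale. Adcy3 shares 22.1% of its exon bases with Cenpo, so part of its count is uncertain.

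Adcy1, a calcium- and calmodulin-stimulated cyclase best known from neurons (ENSMUSG00000020431, chromosome 11, 7063489 to 7178506), varied most over the libraries among the 36. It was at 12.3, 0.137 and 9.94 CPM in Cre clones 4, 7 and 21 and at 1.33, 17.9 and 76.8 CPM in the matching Flp cultures. The highest library, Flp clone 21, stood 560.2 times above the lowest, Cre clone 7, which had 4 reads. Cre was far above Flp in clone 4 and far below it in clones 7 and 21, with log2 ratios of 3.16, -6.53 and -2.94. The fitted value of -2.28 had a 95% interval of -7.14 to 2.57 (edgeR adjusted p = 0.912), and it was -4.09 without clone 4, -0.18 without clone 7 and -1.26 without clone 21. Adcy1 took 13.2% of the cyclase level in Flp clone 21 and 0.0210% in Cre clone 7. Tested genes within 5 Mb of Adcy1 had median log2 ratios of 0.0087, 0.041 and 0.020 in clones 4, 7 and 21.

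The remaining cyclases were scarce. Adcy5, the calcium-inhibited relative of Adcy6, was at 0.520, 0.582 and 0.716 CPM in Cre clones 4, 7 and 21 and at 0.928, 0.745 and 0.375 CPM in the matching Flp cultures, with clone ratios of -0.77, -0.33 and 0.84 and overlapping groups. Adcy4, another cyclase stimulated by beta-gamma subunits, had 5, 31 and 22 reads in Cre clones 4, 7 and 21 and 0, 8 and 0 in the matching Flp cultures. It was too low for the test, and its higher Cre counts in clones 7 and 21 lie in a stretch of chromosome 14 where 90 tested genes within 5 Mb had median log2 ratios of 0.097, 0.87 and 0.79 in clones 4, 7 and 21. Adcy2, of the same beta-gamma-stimulated kind, reached at most 0.820 CPM, in Flp clone 7.

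**Figure D3:**
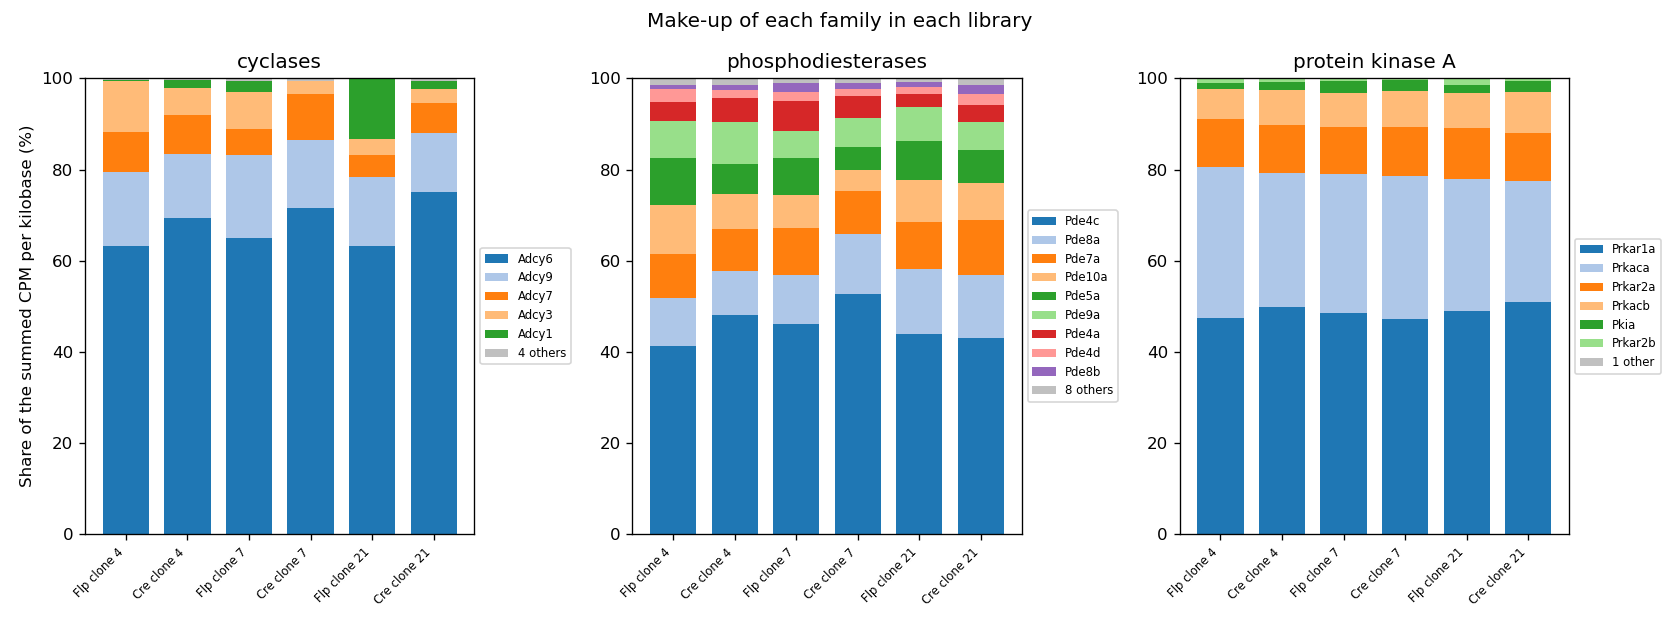
Share of each gene in the summed CPM per kilobase of the cyclases (left), phosphodiesterases (middle) and protein kinase A genes (right), one bar per library. Adcy6 and Pde4c take the largest share of their families in all 6 libraries, and Adcy1 is visible mainly in Flp clone 21.

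Phosphodiesterases end the signal, and their families differ in substrate. The cAMP-specific families Pde4, Pde7 and Pde8 were led by Pde4c, which has been placed in the primary cilium of tubule cells (ENSMUSG00000031842, chromosome 8, 70723720 to 70751186). Pde4c held 41.2% to 52.6% of the phosphodiesterase level per kilobase. It was at 183, 206 and 132 CPM in Cre clones 4, 7 and 21 and at 136, 158 and 147 CPM in the matching Flp cultures. Cre was the higher in clones 4 and 7 and the lower in clone 21, with overlap, and the fitted log2 fold change was 0.22 (95% interval -0.14 to 0.58). Per kilobase, Pde4c exceeded Pde4a 6.96 to 15.2 times.

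The other Pde4 genes were lower. Pde4a was at 27.6, 25.9 and 16.3 CPM in Cre clones 4, 7 and 21 and at 19.0, 31.0 and 13.3 CPM in the matching Flp cultures. Its groups overlapped and both clone 21 libraries were the lowest, as clone means of 23.3, 28.5 and 14.8 CPM in clones 4, 7 and 21 show. Pde4d, whose long forms bind anchoring proteins, was at 12.9, 14.2 and 15.3 CPM in Cre clones 4, 7 and 21 and at 21.3, 13.5 and 11.4 CPM in the matching Flp cultures. Flp clone 4 stood highest and the clone ratios of -0.72, 0.071 and 0.43 went both ways. Pde4b ranged from 3.63 to 6.05 CPM, with a fitted value of -0.21 (95% interval -0.90 to 0.48).

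Pde7a, a cAMP-specific enzyme of high affinity, was at 49.1, 50.7 and 51.6 CPM in Cre clones 4, 7 and 21 and at 44.1, 49.4 and 48.3 CPM in the matching Flp cultures. The libraries lay close together and the groups overlapped narrowly, and the interval of its log2 fold change was -0.18 to 0.37. Its relative Pde7b (ENSMUSG00000019990, chromosome 10, 20398004 to 20725078) was far lower, at 0.804, 1.40 and 2.06 CPM in Cre clones 4, 7 and 21 and at 0.484, 0.671 and 0.600 CPM in the matching Flp cultures. All 3 Cre libraries lay above all 3 Flp libraries, with 34, 41 and 98 reads in Cre clones 4, 7 and 21 and 12, 27 and 16 in the matching Flp cultures. The means were 1.42 ± 0.630 CPM for the Cre group against 0.58 ± 0.0941 CPM for the Flp group (SD, n = 3), the clone ratios 0.67, 1.01 and 1.69, and the fitted log2 fold change 1.20 (SE 0.41; edgeR unadjusted p = 0.0271, adjusted p = 0.6701). Pde8a, of the family with the highest affinity for cAMP, was at 26.9, 37.6 and 30.5 CPM in Cre clones 4, 7 and 21 and at 25.5, 26.9 and 34.7 CPM in the matching Flp cultures. Its groups overlapped and its clone ratios were 0.079, 0.48 and -0.18. Pde8b ranged from 2.87 to 6.93 CPM, with clone ratios of 0.72, -0.31 and 0.82.

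Of the calcium- and calmodulin-stimulated Pde1 family, which hydrolyses cAMP and cGMP, Pde1b was the one gene tested (ENSMUSG00000022489, chromosome 15, 103503034 to 103530052). It was at 2.17, 0.857 and 0.989 CPM in Cre clones 4, 7 and 21 and at 1.17, 0.298 and 0.263 CPM in the matching Flp cultures, from 92, 25 and 47 reads in Cre clones 4, 7 and 21 and 29, 12 and 7 in the matching Flp cultures. Cre was the higher in each clone, but Flp clone 4 lay above Cre clones 7 and 21. The means were 1.34 ± 0.726 CPM for the Cre group against 0.577 ± 0.514 CPM for the Flp group (SD, n = 3), with clone ratios of 0.86, 1.36 and 1.71 and a fitted log2 fold change of 1.39 (SE 0.41; edgeR unadjusted p = 0.0164, adjusted p = 0.646). Pde1c had at most 0.242 CPM, and Pde1a, which had no read, was not detectable at this depth.

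Pde5a and Pde10a, of a cGMP-specific and a dual family, differed between Cre and Flp by a like amount in each clone. Pde5a, specific for cGMP (ENSMUSG00000053965, chromosome 3, 122728947 to 122859374), was at 44.4, 36.1 and 38.9 CPM in Cre clones 4, 7 and 21 and at 60.0, 49.5 and 50.6 CPM in the matching Flp cultures. Each Cre library lay below each Flp library. The means were 39.8 ± 4.21 CPM for the Cre group against 53.3 ± 5.77 CPM for the Flp group (SD, n = 3), the clone ratios -0.43, -0.46 and -0.38, and the fitted log2 fold change -0.42 (SE 0.11, 95% interval -0.70 to -0.15; edgeR unadjusted p = 0.00965, adjusted p = 0.619). The value moved only between -0.45 and -0.40 over the 11 alternative fits, of which 10 gave an unadjusted p under 0.05, while the adjusted p stayed between 0.181 (DESeq2 with the clone block) and 1 (without clone 21).

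Pde10a, which hydrolyses both nucleotides (ENSMUSG00000023868, chromosome 17, 8525372 to 8986648), was at 68.1, 41.2 and 57.2 CPM in Cre clones 4, 7 and 21 and at 82.3, 55.9 and 71.4 CPM in the matching Flp cultures. Cre was below Flp by a like amount in each clone (log2 ratios -0.27, -0.44 and -0.32), and the groups overlapped because clone 7 was low in both cultures. The means were 55.5 ± 13.5 CPM for the Cre group against 69.9 ± 13.3 CPM for the Flp group (SD, n = 3), and the fitted log2 fold change was -0.35 (SE 0.11; edgeR unadjusted p = 0.0195, adjusted p = 0.646). Pde9a, cGMP-specific, was at 22.2, 15.3 and 11.7 CPM in Cre clones 4, 7 and 21 and at 16.8, 13.0 and 15.6 CPM in the matching Flp cultures. Its highest library was Cre clone 4 and its lowest Cre clone 21, and the groups overlapped. The dual and cGMP-regulated Pde2a, Pde3a and Pde3b stayed at or below 0.199 CPM. For Pde2a that level is uncertain: the gene shares 64.3% of its exon bases with an overlapping annotated locus, Gm45837, and the authors' deposited table lists a mean normalised count of 88.9 where the count files gave 0.817. The mean in the authors' deposited table lay between 0.8 and 1.25 times that of the count files for 37 of the 43 genes with reads, the others being Pde2a, Adcy5, Pde3a, Adcy9, Pde8a and Prkar1b.

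**Figure D4:**
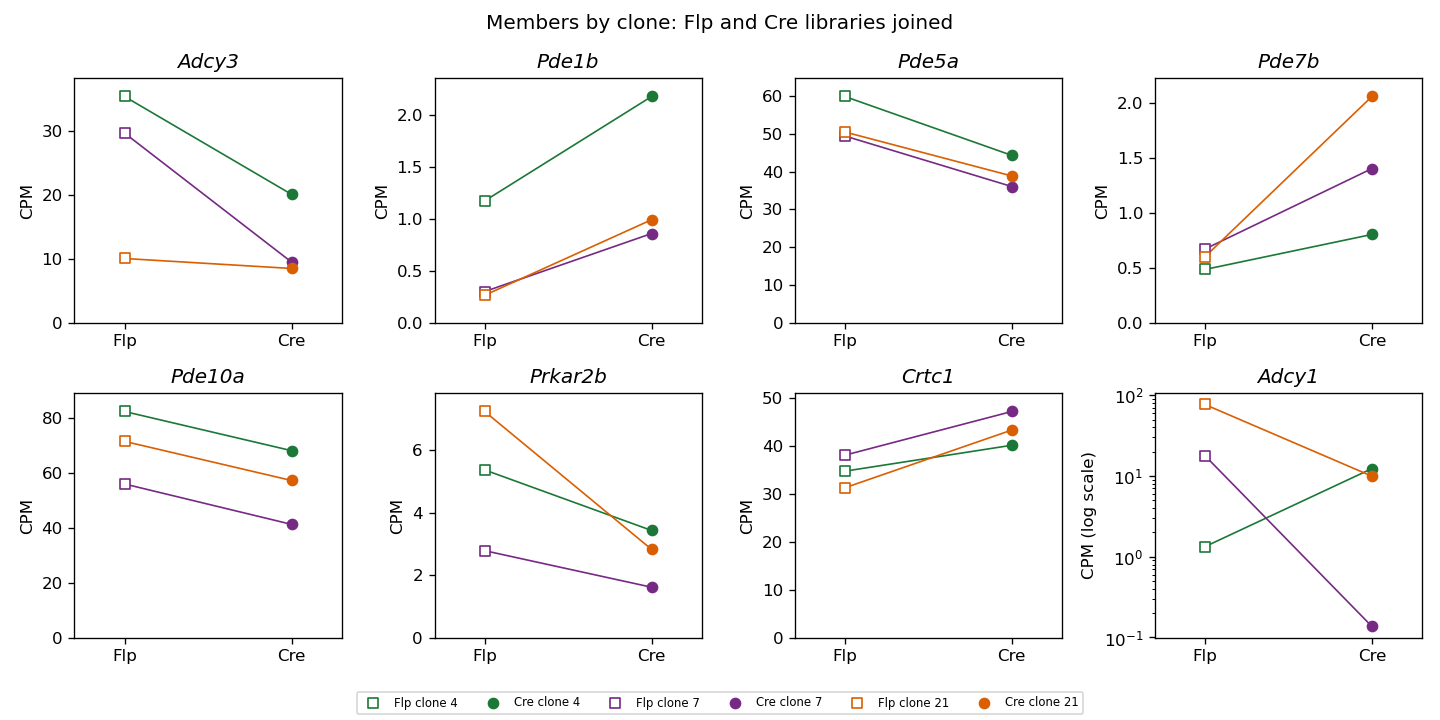
CPM of the 7 genes with an unadjusted p under 0.05 and of Adcy1, with the Flp (open squares) and Cre (filled circles) library of each clone joined by a line; the axis of Adcy1 is logarithmic, the others start at 0. The lines run the same way in all clones for the 7 genes and both ways for Adcy1, which is higher in Cre in clone 4, from 1.33 to 12.3 CPM, and lower in clones 7 and 21.

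The genes of the kinase came next. Prkar1a, the type I alpha regulatory subunit, made up 47.3% to 51.0% of the summed level per kilobase. It was at 278, 313 and 355 CPM in Cre clones 4, 7 and 21 and at 289.7, 272 and 297 CPM in the matching Flp cultures. Prkaca, the main catalytic subunit, was at 94.4, 119 and 107 CPM in Cre clones 4, 7 and 21 and at 116, 98.5 and 102 CPM in the matching Flp cultures. Prkar2a, the type II alpha regulatory subunit, was at 85.9, 105 and 108 CPM in Cre clones 4, 7 and 21 and at 94.7, 86.3 and 100.1 CPM in the matching Flp cultures. The groups overlapped for all 3 genes, clone 4 alone had the Cre library below Flp for each, and the 95% intervals of the log2 fold changes were -0.15 to 0.41 for Prkar1a, -0.33 to 0.35 for Prkaca and -0.21 to 0.38 for Prkar2a. The ratio of Prkar1a to Prkar2a per kilobase kept between 4.38 and 4.85 in the 6 libraries.

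Prkacb, the second catalytic subunit, was at 88.0, 107 and 125 CPM in Cre clones 4, 7 and 21 and at 82.6, 84.7 and 95.8 CPM in the matching Flp cultures. Cre was above Flp in each clone with overlap between groups, and the fitted log2 fold change was 0.27 (95% interval -0.0012 to 0.54). Prkaca exceeded Prkacb 3.00 to 4.96 times per kilobase, least in Cre clone 21 and most in Flp clone 4. Mean CPM was alike for both (106 and 97.2 CPM), so this ratio rests mainly on annotated exon lengths of 2488 and 8772 bases. Prkar2b, the type II beta regulatory subunit (ENSMUSG00000002997, chromosome 12, 31958476 to 32061296), was scarce and lower in Cre in each clone. It was at 3.43, 1.61 and 2.82 CPM in Cre clones 4, 7 and 21 and at 5.37, 2.78 and 7.24 CPM in the matching Flp cultures. The groups overlapped because both libraries of clone 7 were low. Means were 2.62 ± 0.925 CPM for the Cre group against 5.13 ± 2.24 CPM for the Flp group (SD, n = 3), clone ratios -0.64, -0.77 and -1.34, and the fitted log2 fold change -0.93 (SE 0.29; edgeR unadjusted p = 0.0200, adjusted p = 0.646). Prkar1b, the neuronal type I beta subunit, had at most 14 reads in a library.

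Pkia encodes a small peptide that blocks the free catalytic subunit. It was at 8.23, 14.4 and 15.6 CPM in Cre clones 4, 7 and 21 and at 6.58, 12.4 and 9.26 CPM in the matching Flp cultures. Cre was the higher in each clone, with log2 ratios of 0.32, 0.21 and 0.75, and the groups overlapped since clone 4 was low in both cultures. The fitted value was 0.43 (95% interval -0.090 to 0.95). Pkig, another inhibitor of this family, was more abundant, at 105, 78.1 and 67.3 CPM in Cre clones 4, 7 and 21 and at 107, 112 and 135 CPM in the matching Flp cultures. Its clone ratios were -0.034, -0.52 and -1.002 (edgeR unadjusted p = 0.0373, adjusted p = 0.686), and every Cre library lay below every Flp library. Its 65 tested neighbours on chromosome 2 had a median of -0.55 in clone 21. The third inhibitor, Pkib, had no read in any library.

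The promoters were searched for the cAMP response element, which Creb factors bind. The element TGACGTCA, which reads the same on both strands, and its short forms TGACG and CGTCA, which it contains, searched on both strands, were looked for in the 250 bases before each start site in RefSeq's promoter table (GRCm38.p6). Of the 45 genes 35 matched the table. The other 10 were not searched: Adcy6, Adcy8, Pde3a, Pde3b, Pde7a, Pde9a, Pkia, Akap12, Crem and Crtc2. The 35 matched genes had 72 windows, more per gene than the 32851 windows of all 27025 genes, so shares are given per window first. The full element was in 1 of the 72 (1.39%), at Prkar1a, against 1.55% of all windows, and a short form in 15 (20.8%), of 13 genes, against 17.8%. Both shares were near those of all windows, although some windows of a gene overlap and hold the same site. Per gene, a short form was found for 13 of the 35 (37.1%), against 19.8% of all genes. The 35 genes had more windows each, so the shares per gene are not like for like. The 3 windows with the full element or at least 2 short forms are shown. They belong to Prkar1a and Prkaca, which led the kinase genes per kilobase, and to Nr4a1, a classical target of the pathway. Sequences run 5′ to 3′ and end at the base before the start site, with these motifs in capitals.
Prkar1a (chr11:109650699-109650948, plus strand): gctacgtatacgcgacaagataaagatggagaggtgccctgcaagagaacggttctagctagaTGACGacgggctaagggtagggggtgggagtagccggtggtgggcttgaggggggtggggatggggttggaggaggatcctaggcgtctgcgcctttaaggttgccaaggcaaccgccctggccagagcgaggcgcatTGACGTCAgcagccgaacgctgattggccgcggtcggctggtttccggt
Prkaca (chr8:83972728-83972977, plus strand): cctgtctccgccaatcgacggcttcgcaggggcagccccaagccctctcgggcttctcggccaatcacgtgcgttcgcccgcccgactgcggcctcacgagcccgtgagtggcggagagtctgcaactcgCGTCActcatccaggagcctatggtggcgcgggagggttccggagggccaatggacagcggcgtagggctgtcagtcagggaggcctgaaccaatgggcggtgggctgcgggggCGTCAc
Nr4a1 (chr15:101266596-101266845, plus strand): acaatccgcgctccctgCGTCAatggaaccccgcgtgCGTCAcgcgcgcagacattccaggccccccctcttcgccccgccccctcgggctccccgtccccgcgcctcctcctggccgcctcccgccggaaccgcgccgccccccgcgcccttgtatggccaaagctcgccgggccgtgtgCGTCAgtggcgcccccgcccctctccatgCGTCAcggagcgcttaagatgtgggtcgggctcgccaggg
In Prkar1a the full element began 49 bases before the start site, in 1 of its 6 windows, and a short form began 187 bases before it. In Prkaca short forms began 120 and 6 bases before it, and in Nr4a1 4 short forms began 233, 213, 69 and 40 bases before it. A match of letters is a description and not a measured binding site. None of the 3 genes had an unadjusted edgeR p under 0.05 between Cre and Flp.

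Epac proteins are the kinase-independent arm: they activate the small G protein Rap when cAMP binds. Rapgef3 (Epac of most tissues) was at 173, 173 and 144 CPM in Cre clones 4, 7 and 21 and at 139, 211 and 112 CPM in the matching Flp cultures. Rapgef4, its relative of brain and endocrine tissue, was at 56.9, 47.4 and 57.4 CPM in Cre clones 4, 7 and 21 and at 42.4, 59.6 and 42.9 CPM in the matching Flp cultures. Both were higher in Cre of clones 4 and 21 and lower in Cre of clone 7, with ratios of 0.32, -0.29 and 0.37 for Rapgef3 and 0.42, -0.33 and 0.42 for Rapgef4, and with overlapping groups. This order is also that of the library depths, Cre having the deeper library for clones 4 and 21 but not for clone 7. The part of depth in these ratios was not tested. Of the 36 genes 6 had this order, a larger share than the 1849 of all 15355 genes tested that had it. Only 1 of the 36, Atf1, had the opposite order, a smaller share than the 2053 of all 15355 genes tested. Both orders together made up 19.4% of the 36, against 25.4% of all genes. Beside Rapgef3 and Rapgef4, the 6 were Adcy6, Pde4a, Pde8b and Akap5. Fitted log2 fold changes were 0.13 (95% interval -0.26 to 0.52) for Rapgef3 and 0.17 (-0.28 to 0.63) for Rapgef4.

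Anchors place the kinase. Akap12 (gravin), a membrane scaffold, was the most abundant of the 45 genes per kilobase, with a mean of 120.3 CPM per kilobase. It was at 711, 838 and 739.9 CPM in Cre clones 4, 7 and 21 and at 915, 738 and 720.1 CPM in the matching Flp cultures. Flp clone 4 stood apart on the high side and the groups overlapped. The log2 fold change was -0.047 (95% interval -0.40 to 0.30). Akap13, a large anchor of the kinase, was at 147, 134 and 149.8 CPM in Cre clones 4, 7 and 21 and at 167, 171 and 92.6 CPM in the matching Flp cultures. The lowest library was Flp clone 21 and the highest Flp clone 7, so that the clone ratios of -0.18, -0.36 and 0.69 went both ways. Akap5, which ties the kinase to calcineurin and to cyclases at the membrane, was at 3.48, 1.99 and 3.75 CPM in Cre clones 4, 7 and 21 and at 1.33, 5.07 and 2.36 CPM in the matching Flp cultures. Clones 4 and 21 had more in Cre and clone 7 less, with log2 ratios of 1.35, -1.33 and 0.65, from 147, 58 and 178 reads in Cre clones 4, 7 and 21 and 33, 204 and 63 in the matching Flp cultures. Its fitted value of 0.24 had a 95% interval of -1.20 to 1.68. Akap5, Adcy1 and Adcy5 were the 3 of 36 genes (8.33%) with ratios of at least 1.5-fold in opposite directions in different clones, against 9.03% of all genes tested.

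The Creb factors had no member with an interval beyond 1 log2 unit. Creb1, the factor phosphorylated by the kinase, was at 74.1, 84.0 and 93.6 CPM in Cre clones 4, 7 and 21 and at 74.9, 72.6 and 92.1 CPM in the matching Flp cultures. Atf1, its close relative, was at 34.1, 34.4 and 34.7 CPM in Cre clones 4, 7 and 21 and at 37.1, 34.1 and 40.13 CPM in the matching Flp cultures. The groups overlapped for both, and the intervals were -0.19 to 0.34 for Creb1 and -0.41 to 0.20 for Atf1. Crem, whose internal promoter gives the inducible repressor of the pathway, was at 24.3, 26.0 and 31.1 CPM in Cre clones 4, 7 and 21 and at 23.3, 22.9 and 21.7 CPM in the matching Flp cultures. The lowest Cre library was just above the highest Flp library, and the fitted value was 0.25 (edgeR unadjusted p = 0.156, adjusted p = 0.864). Reads of the repressor form cannot be told from those of the whole gene.

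Crtc proteins are coactivators that enter the nucleus when cAMP blocks their kinases. Crtc2 was the most abundant per kilobase, with a mean of 18.3 CPM per kilobase. It was at 82.2, 73.9 and 67.1 CPM in Cre clones 4, 7 and 21 and at 72.1, 78.4 and 75.2 CPM in the matching Flp cultures, with overlap and an interval of -0.31 to 0.27. Crtc1 (ENSMUSG00000003575, chromosome 8, 70382355 to 70439579) was at 40.07, 47.1 and 43.2 CPM in Cre clones 4, 7 and 21 and at 34.7, 38.0 and 31.2 CPM in the matching Flp cultures. Every Cre library lay above every Flp library. Means were 43.5 ± 3.53 CPM for the Cre group against 34.6 ± 3.40 CPM for the Flp group (SD, n = 3), clone ratios 0.21, 0.31 and 0.47, and the fitted log2 fold change 0.33 (SE 0.12; edgeR unadjusted p = 0.0378, adjusted p = 0.689). Crtc3 was at 32.8, 39.9 and 37.0 CPM in Cre clones 4, 7 and 21 and at 39.1, 34.8 and 31.6 CPM in the matching Flp cultures, with groups that overlapped. Nr4a1, an orphan nuclear receptor induced within minutes of a cAMP pulse, served as a target gene. It was at 11.9, 11.4 and 11.2 CPM in Cre clones 4, 7 and 21 and at 8.72, 11.3 and 12.5 CPM in the matching Flp cultures. Flp clone 4 was the lowest and Flp clone 21 the highest library, so the groups overlapped, and the interval of the log2 fold change was -0.42 to 0.63.

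The clones were compared in the same fit, as a test of both clone terms with the group held fixed. At an adjusted p of 0.05 edgeR called 0 of the 36 genes (0.00651% of all genes), and DESeq2 with the same terms called 1, Adcy3 (adjusted p = 0.0151), where it called 2.86% of all genes. edgeR without the filter also called Adcy3 alone (adjusted p = 0.0164), where it called 1.83% of all genes, so 1 call is near the background. At an unadjusted p under 0.05 edgeR counted 8 (22.2%), against 8.00% of all genes: Adcy3, Adcy7, Adcy9, Pde1b, Pde4a, Pde10a, Prkar2b and Pkia. Here too the genes were chosen with earlier results of these data known. Adcy3 averaged 27.8, 19.6 and 9.27 CPM in clones 4, 7 and 21, and was lowest in clone 21. Pde10a averaged 75.2, 48.6 and 64.3 CPM and Prkar2b 4.40, 2.20 and 5.03 CPM, both lowest in clone 7. Pde1b averaged 1.67, 0.577 and 0.626 CPM, highest in clone 4, and Pkia 7.40, 13.4 and 12.4 CPM, lowest in clone 4.

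The other genes of the pathway were read from lists of 99 genes, of which 61 were tested. These lists were also chosen with earlier results of these data known. edgeR called none at an adjusted p of 0.05 and counted 7 (11.5%) at an unadjusted p under 0.05, against 6.82% of all genes tested. Of 22 receptors coupled to the stimulatory G protein, 7 were expressed enough to test, and all 7 had fitted values below 0, a count made after the data were seen, where 49.3% of all genes tested were below 0. Their median was -0.57 beside 0.0033 over all genes tested, and 5 were lower in Cre in every clone, where 13.1% of all genes were. Pth1r, the parathyroid hormone receptor of the proximal tubule, was the most abundant, at 187, 169.9 and 189.5 CPM in Cre clones 4, 7 and 21 and at 214, 272 and 195 CPM in the matching Flp cultures, with clone ratios of -0.20, -0.68 and -0.040 and no overlap between groups. Drd1, the dopamine receptor with the smallest p, was at 0.520, 0.137 and 0.168 CPM in Cre clones 4, 7 and 21 and at 1.17, 0.571 and 0.713 CPM in the matching Flp cultures, with a log2 fold change of -1.69 (edgeR unadjusted p = 0.0122, adjusted p = 0.631). Glp1r stood at 31.4 CPM in Flp clone 4 and at no more than 3.43 CPM in any other library. Glp1r was named after its values were seen. The vasopressin receptor Avpr2 had at most 0.0685 CPM, but 81.3% of its exon bases are shared with another gene, which leaves its level uncertain.

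All 8 tested G protein genes had fitted values below 0, also counted after the data were seen, with a median of -0.079, but 7 did with library totals alone as the scaling and 3 without clone 4. Gnai2, the most abundant inhibitory subunit, had a value of -0.16 and the beta subunit Gnb4 one of -1.77 (edgeR unadjusted p = 0.0328, adjusted p = 0.686). The stimulatory subunit Gnas, named after its values were seen and sharing exon bases with another gene, was at 31.0, 65.6 and 47.4 CPM in Cre clones 4, 7 and 21 and at 73.5, 50.2 and 62.0 CPM in the matching Flp cultures; in clone 21 its neighbours on chromosome 2 had a median log2 ratio of -0.61. Among 9 tested other anchors the median was -0.0078. Ezr, the most abundant, had a value of 0.10. Akap11, with the smallest p, was at 82.5, 169 and 155 CPM in Cre clones 4, 7 and 21 and at 68.4, 89.0 and 63.9 CPM in the matching Flp cultures and had a log2 fold change of 0.83 (edgeR unadjusted p = 0.00687, adjusted p = 0.607); it lies on chromosome 14, where 21 neighbours had median ratios of 0.070, 0.85 and 0.77 in clones 4, 7 and 21. Of 5 tested genes among the other cyclases, phosphodiesterases and kinase inhibitors the median was 0.10, with the scaffold Pde4dip, the most abundant, at 0.17 and Pkig, described above, at -0.52.

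Of the 11 coactivators and kinases around Creb, all tested, the median was 0.041 and none had an unadjusted edgeR p under 0.05. The acetyltransferase Ep300, the most abundant, had a value of 0.068, and Sik1, a kinase that holds Crtc proteins in the cytoplasm and had the smallest p, one of -0.27. Of 13 Creb target genes 11 were tested, 8 above and 3 below 0, with a median of 0.13 and clone medians of 0.29, 0.00041 and -0.078 in clones 4, 7 and 21. Nr4a2, with the smallest p, was at 6.43, 12.8 and 10.4 CPM in Cre clones 4, 7 and 21 and at 5.25, 8.57 and 5.10 CPM in the matching Flp cultures. Cre was above Flp in each clone with overlap, and the log2 fold change was 0.64 (edgeR unadjusted p = 0.0417, adjusted p = 0.698). Junb, the most abundant, had a value of -0.23 with clone ratios of -0.81, 0.00041 and 0.13.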

How the data were processed

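Per the submitters' processing notes, reads were handled with DESeq2 (2.11.40.1), featureCounts (1.6.0.3), STAR (2.5.2b-2), FastQC (0.67) and Trim Galore (0.4.3.0) on mm10/GRCm38. The strand setting was not given in the sources used here, nor was the gene annotation, so reads of overlapping genes cannot be told apart, which touches 13 of the 45 genes. Raw gene counts were deposited for each library. A table of the authors' own comparison was deposited too, with a mean of normalised counts (a signal over libraries), log2 fold changes, standard errors and Wald values (a score each), and p-values.

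Symbols, positions and exon lengths came from GENCODE M21 (GRCm38), in which 49412 of the 49671 identifiers had an entry. Fits ran in DESeq2 1.42.0, limma 3.58.1 and edgeR 4.0.16 under R 4.3.3. Genes passing filterByExpr were scaled by TMM and Cre was tested against Flp by edgeR's quasi-likelihood test, blocked by clone, on 15355 genes, with Benjamini-Hochberg adjustment over all of them and a threshold of 0.05. Standard errors came from the F statistic, and clone ratios use a prior count of 2. The block follows the series' design, which pairs the cultures of a clone. After removal of group means, libraries of a clone correlated at 0.20, 0.11 and 0.30 for clones 4, 7 and 21. No 2 libraries agreed within sampling noise (chi-square per degree of freedom of at least 42.2). Neighbours are tested genes of at least 5 CPM with a midpoint within 5 Mb, as medians centred per clone.

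The members and lists were chosen with earlier results of these data known. Values per library are given for members with a mean of at least 10 CPM, an unadjusted p under 0.05 between groups or clones, or clone ratios of at least 1.5-fold in opposite directions; of each other list the genes with the smallest p and the highest CPM are named. Tested on simulated data of 15090 genes, the blocked edgeR comparison of Cre with Flp recovered 20% of the genes changed 1.5-fold. It recovered 62% of those changed 2-fold and 94% of those changed 4-fold, with 5 false calls. On the measured libraries the same comparison called 0 of 15355 genes, so these shares may not carry over to them. Figures were drawn with matplotlib 3.10.9. Alternatives were the fit without the block, DESeq2, limma-voom, other scalings and filters, another threshold and leaving out each clone.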

Additional observations from a re-analysis of the deposited data

Results flagged for a closer look

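Adcy1, Adcy5 and Akap5 moved in opposite directions between Cre and Flp in different clones, by at least 1.5-fold each way. With 1 Cre and 1 Flp library per clone the difference between clones was not tested. Adcy1 had a log2 ratio of 3.16 in clone 4 and -6.53 in clone 7. Akap5 had 1.35 in clone 4 and -1.33 in clone 7. Adcy5, with at most 34 reads in a library, had 0.84 in clone 21 and -0.77 in clone 4. These are 3 of the 36 genes tested (8.33%), against 9.03% of all genes tested.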

How the results depend on the processing

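Over all genes, the 0 calls of edgeR between Cre and Flp became 196 with DESeq2 and the clone block, 14 with DESeq2 and no replicate block, and 224 without the filter on low counts; none of the 45 genes was called under any alternative, and the lowest adjusted p was 0.0935, for Adcy3. The count of 7 at an unadjusted p under 0.05 was 3 without the replicate block and 2 to 11 without 1 clone. At an adjusted p of 0.05 the block changed no edgeR call. With DESeq2 it changed the number of calls over all genes, but none among the 45 genes. Between clones, the 1 gene called of all tested became 414 with DESeq2, 0 with limma-voom, 519 without the filter, 0 with at least 10 reads in every library, 3 at an adjusted p under 0.1 and 0 to 4 without 1 clone. Of the 45 genes 1 was called between clones with DESeq2 and 1 without the filter. The cause of these shifts was not tested. Without 1 clone the sign of the log2 fold change turned for 13 of the 36 genes, none of them called: Adcy5 from -0.60 to 0.26, Pde4b from -0.40 to 0.0033, Pde4d from -0.33 to 0.25, Pde8a from -0.051 to 0.28, Pde9a from -0.088 to 0.32, Prkaca from -0.11 to 0.17, Prkar2a from -0.012 to 0.19, Akap5 from -0.34 to 1.01, Akap12 from -0.16 to 0.11, Akap13 from -0.27 to 0.26, Crtc2 from -0.12 to 0.049, Crtc3 from -0.031 to 0.21, Nr4a1 from -0.068 to 0.23. Akap13 was at -0.0020 with DESeq2 and no replicate block. The other 23 genes kept their sign under every alternative. The 7 tested receptors below 0, counted after seeing the data, were 6 without clone 21 and 5, all that remained, with at least 10 reads in every library; the 8 G protein genes below 0, also counted afterwards, were 3 to 8 without 1 clone. Of the 36 tested genes Adcy5, Pde1b and Pde7b had fewer than 100 reads in every library.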

Other observations

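Around cGMP, the sister nucleotide that Pde5a and Pde9a hydrolyse, the cells expressed Npr2, the receptor cyclase for C-type natriuretic peptide, at 75.8, 70.5 and 65.0 CPM in Cre clones 4, 7 and 21 and at 93.4, 93.7 and 64.5 CPM in the matching Flp cultures. Clone ratios were -0.30, -0.41 and 0.013 and the groups overlapped. Npr1, the receptor for atrial natriuretic peptide, stayed at or below 3.02 CPM, and the soluble cyclase subunits Gucy1a1 and Gucy1b1 had no read in any library. The cGMP-dependent kinase Prkg2 was at 14.3, 3.02 and 9.37 CPM in Cre clones 4, 7 and 21 and at 11.8, 6.26 and 15.7 CPM in the matching Flp cultures, lowest in clone 7. Abcc4, which exports cyclic nucleotides, had the smallest p of the 10 tested genes of this list, at 47.1, 93.5 and 58.0 CPM in Cre clones 4, 7 and 21 and at 13.8, 40.3 and 48.9 CPM in the matching Flp cultures. Cre was above Flp in each clone, with log2 ratios of 1.76, 1.21 and 0.25 in clones 4, 7 and 21 and a fitted value of 1.07 (edgeR unadjusted p = 0.0110, adjusted p = 0.631). It lies on chromosome 14, where 20 neighbouring genes had median ratios of -0.091, 0.59 and 0.64. Its relative Abcc5 was the most abundant of the list, at 606, 553 and 601 CPM in Cre clones 4, 7 and 21 and at 451, 643 and 664 CPM in the matching Flp cultures, with overlapping groups. The list's median log2 fold change was -0.23. Npr1, Npr2, Prkg2 and the soluble cyclases were named after their values were seen.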
